A study of Mus musculus with 18 samples.

Results

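The kinesin motor family was followed here through the RNA of MC38 tumors, a mouse colon carcinoma line grown under the skin. All genes whose symbol is Kif followed by a digit were taken, 37 of the 18193 genes with a probe set of a single symbol. By what they are best known for, 11 were counted as mitotic kinesins, 13 as transport kinesins, 5 as ciliary kinesins and 8 as remaining kinesins. The brightest probe set stood for each gene, and sets with the suffix _x_at, which can cross-hybridize, were passed over where another set existed. Values are log2 signal units, so a difference of 1 is a 2-fold change. A gene was counted as measured where its signal was above 4 on at least 4 of the 18 arrays, which held for 25 of the 37 members. These were 9 mitotic, 10 transport, 2 ciliary and 4 remaining kinesins. The other 12 members stayed below 3 on every array: the mitotic Kif14 and Kif15, the transport kinesins Kif1a, Kif5a and Kif17, the ciliary Kif6, Kif9 and Kif27, and Kif2b, Kif12, Kif26a and Kif28. For these 12 the arrays gave no usable level in any group.

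Kinesins are motor proteins that turn ATP hydrolysis into steps along microtubules or into the removal of tubulin from microtubule ends. Mitotic kinesins separate the spindle poles, align the chromosomes and build the midzone at which a dividing cell is cut apart, and their transcripts are made mainly late in the cell cycle, in G2 and M. Transport kinesins carry vesicles, endosomes and mitochondria toward the cell periphery in dividing and resting cells alike, while a few family members work at the primary cilium.

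The study asked how the MEK inhibitor GDC-0623 (MEKi) and an agonist anti-CD40 antibody of the mouse IgG1 isotype change such tumors, alone and together. The MEKi/CD40 group (4 tumors) had both drugs, the MEKi group (5 tumors) had GDC-0623 with control IgG, the anti-CD40 group (4 tumors) had the antibody with vehicle, and the control group (5 tumors) had vehicle with control IgG. GDC-0623 was dosed daily at 30 mg/kg for about 2 weeks, antibodies were injected on treatment days 3, 5 and 7 and again the day before sampling, and tumors were taken on day 22 after inoculation. All hosts were C57BL/6-Ly5.1 mice aged 6 to 12 weeks that received cells of a single tumor line in PBS and Matrigel, and the label for each array was made from 200 ng total RNA of a piece of whole tumor of its own animal.

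Array medians lay between 2.72 and 2.95, and arrays of the same group correlated at 0.987 to 0.998. In bulk tumor RNA, fewer cells of a type and less RNA per cell cannot be told apart. The epithelial markers Krt8, Krt18, Krt19, Epcam and Cldn4 lay between 2.16 and 2.76 on all arrays, and of this list only Cdh1 was measured. Cdh1 had 4.35, 5.58, 5.48 and 5.61 in MEKi/CD40 tumors and 6.30, 6.15, 6.34, 6.58 and 6.89 in control tumors. It was called lower in MEKi/CD40 tumors against control (log2 -1.20), and its difference of -0.61 in MEKi tumors was not called. Tumors of the MEKi/CD40 group held more RNA of fibroblast markers. All 6 fibroblast markers rose against control, with a list mean of 13.26 to 13.50 in MEKi/CD40 tumors, 12.01 to 12.89 in MEKi tumors, 10.55 to 11.49 in anti-CD40 tumors and 10.12 to 10.83 in control tumors. Against control, MEKi tumors rose in 4 of the 6 and fell in 4 of 6 macrophage markers. In MEKi/CD40 tumors 1 of the 6 macrophage markers was called lower. Of all measured probe sets, 8.65% were called higher and 8.22% lower in MEKi tumors. In MEKi/CD40 tumors these shares were 11.4% and 20.3%. Markers of fat reached a mean of 11.14 in MEKi/CD40 tumor 2 and 7.32 in MEKi/CD40 tumor 4, while the control tumors lay between 3.76 and 4.42. MEKi/CD40 tumor 4 further stood out for skeletal muscle markers, with a mean of 8.47 against 2.19 to 2.75 in the other MEKi/CD40 tumors and 2.18 to 2.64 in control tumors. The part of these cells in the kinesin results was not tested beyond the alternatives named below. Titles carry a number, which was 7800 or above for 3 MEKi and 3 control tumors and below it for all others. What the number stands for is not given in the labels.

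Against control, MEKi/CD40 tumors had less RNA of every measured mitotic kinesin. All 9 fell, by 1.59 to 2.08 on the log2 scale or 3.02- to 4.24-fold, with adjusted p-values of 0.000624 to 0.00279 (limma, Benjamini-Hochberg over 45037 probe sets). In each of the 9, the highest MEKi/CD40 tumor lay below the lowest control tumor. Of all probe sets, 9.37% were called lower in this comparison and 5.5% higher (20.3% and 11.4% of the 20541 measured ones), and 10.3% had MEKi/CD40 tumors all below the control tumors and 6.53% all above. Of the 10 measured transport kinesins, 3 rose and none fell. Their median difference was 0.20, against -1.93 over the measured mitotic kinesins and -0.06 over all measured probe sets. Among the other 6 measured members, Kif26b rose, and Kif24 and Kif2a fell. Kif2a, which also works at spindle poles, was counted with the remaining kinesins and fell by 0.35. The range of 1.59 to 2.08 thus holds for the 9 genes as classed here.

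**Figure D1:**
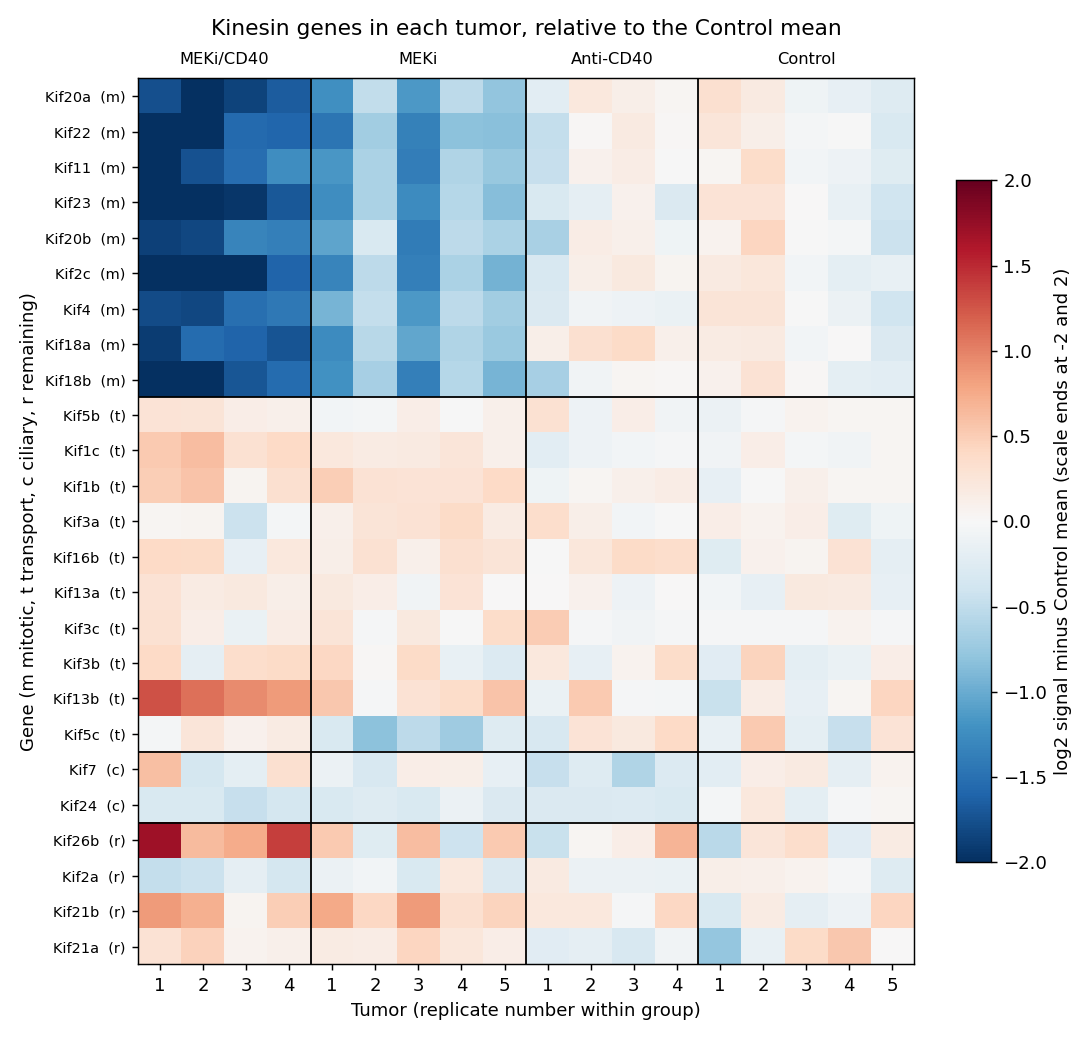
Each row is a measured kinesin gene and each column a tumor, with the color giving log2 signal minus the mean of the 5 control tumors. The upper 9 rows, the mitotic kinesins, are blue in all 4 MEKi/CD40 and all 5 MEKi tumors and mostly pale in anti-CD40 and control tumors, while most of the 10 transport kinesins below them differ little between columns.

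The spindle motor Kif11, at chr19:37376382-37421863 in GRCm38, slides antiparallel microtubules and pushes the spindle poles apart. Its log2 signals were 7.86, 8.11, 8.33 and 8.60 in MEKi/CD40 tumors, 8.68, 9.21, 8.47, 9.25 and 9.09 in MEKi tumors, 9.39, 9.94, 10.00 and 9.84 in anti-CD40 tumors and 9.88, 10.22, 9.80, 9.74 and 9.60 in control tumors. The 4 MEKi/CD40 tumors were lower than all anti-CD40 and control tumors, and their brightest tumor overlapped with the dimmest MEKi tumor. Kif11 fell by 1.62 ± 0.18 (SE) in MEKi/CD40 tumors against control (3.08-fold, adjusted p = 0.00191).

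A pair of motors moves chromosomes or trims the fibers attached to them. The chromokinesin Kif22 (chr7:127027729-127042467), which pushes chromosome arms toward the spindle equator, had signals of 7.83, 7.75, 8.53 and 8.50 in MEKi/CD40 tumors, 8.62, 9.39, 8.73, 9.26 and 9.24 in MEKi tumors, 9.61, 10.11, 10.26 and 10.10 in anti-CD40 tumors and 10.32, 10.20, 10.04, 10.07 and 9.78 in control tumors. Kif2c (chr4:117159633-117182624), which strips tubulin from microtubule ends and so corrects faulty kinetochore attachments, gave 7.38, 6.84, 7.34 and 7.81 in MEKi/CD40 tumors, 8.09, 8.90, 8.05, 8.78 and 8.47 in MEKi tumors, 9.10, 9.53, 9.62 and 9.47 in anti-CD40 tumors and 9.59, 9.64, 9.36, 9.23 and 9.27 in control tumors. For both genes the 3 ranges of MEKi/CD40, MEKi and control tumors did not touch. In MEKi/CD40 tumors against control, Kif22 fell by 1.93 ± 0.21 (3.81-fold, adjusted p = 0.00178) and Kif2c by 2.08 ± 0.19 (4.21-fold, adjusted p = 0.00127).

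The kinesin-8 motors Kif18a and Kif18b shorten microtubules at the plus end, Kif18a at the kinetochore, where it steadies the metaphase plate, and Kif18b on astral microtubules. Kif18a (chr2:109280738-109341749) had signals of 6.56, 6.93, 6.86 and 6.74 in MEKi/CD40 tumors, 7.21, 7.91, 7.42, 7.87 and 7.73 in MEKi tumors, 8.59, 8.78, 8.85 and 8.56 in anti-CD40 tumors and 8.63, 8.64, 8.41, 8.47 and 8.18 in control tumors. Its MEKi/CD40 values spanned only 6.56 to 6.93, and it had the smallest adjusted p of the mitotic kinesins in this comparison (0.000624, a fall by 1.69 ± 0.12). Kif18b (chr11:102905518-102925134) had signals of 5.48, 5.79, 6.37 and 6.55 in MEKi/CD40 tumors, 6.87, 7.42, 6.72, 7.51 and 7.16 in MEKi tumors, 7.42, 8.02, 8.12 and 8.11 in anti-CD40 tumors and 8.17, 8.37, 8.11, 7.89 and 7.88 in control tumors. It fell by 2.04 ± 0.24 in MEKi/CD40 tumors against control (4.1-fold, adjusted p = 0.0023), with the widest spread among MEKi/CD40 tumors of the 9 genes (SD 0.50).

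The remaining mitotic kinesins act at the spindle midzone and in cytokinesis. Kif23 (chr9:61917277-61946810), which forms the centralspindlin complex with Racgap1, had signals of 7.25, 7.47, 7.77 and 8.02 in MEKi/CD40 tumors, 8.47, 9.08, 8.46, 9.14 and 8.86 in MEKi tumors, 9.40, 9.54, 9.80 and 9.42 in anti-CD40 tumors and 9.98, 9.99, 9.72, 9.56 and 9.31 in control tumors. It showed the largest fall of the family against control, 4.24-fold (log2 -2.08 ± 0.20, adjusted p = 0.00143). Kif20a (chr18:34624624-34633277), which brings the chromosomal passenger complex to the midzone, had 8.69, 7.81, 8.60 and 8.79 in MEKi/CD40 tumors, 9.22, 9.95, 9.30, 9.93 and 9.66 in MEKi tumors, 10.23, 10.66, 10.56 and 10.48 in anti-CD40 tumors and 10.77, 10.63, 10.36, 10.29 and 10.19 in control tumors. MEKi/CD40 tumor 2, the tumor with the most fat marker RNA, was well below the rest of its group for Kif20a and lay near the others for Kif23. Kif20a was 3.93-fold lower in MEKi/CD40 tumors than in control tumors (log2 -1.98 ± 0.23, adjusted p = 0.00225).

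Kif4 (chrX:100626065-100727271) binds Prc1 and sets the length of the midzone overlap. Its signals were 7.24, 7.22, 7.53 and 7.61 in MEKi/CD40 tumors, 8.10, 8.56, 7.88, 8.51 and 8.34 in MEKi tumors, 8.75, 8.97, 8.94 and 8.90 in anti-CD40 tumors and 9.29, 9.30, 9.03, 8.92 and 8.64 in control tumors, so that the MEKi tumors lay between MEKi/CD40 tumors and both other groups without overlap. Kif20b (chr19:34922335-34975750), which takes part in abscission, had 7.53, 7.58, 8.09 and 8.04 in MEKi/CD40 tumors, 8.35, 9.10, 8.01, 8.88 and 8.77 in MEKi tumors, 8.76, 9.56, 9.50 and 9.32 in anti-CD40 tumors and 9.47, 9.83, 9.39, 9.36 and 8.97 in control tumors. Here the MEKi tumors overlapped with every other group. Against control, Kif4 fell by 1.64 ± 0.16 (3.11-fold, adjusted p = 0.00146) and Kif20b by 1.59 ± 0.20 (3.02-fold, adjusted p = 0.00279) in MEKi/CD40 tumors.

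**Figure D2:**
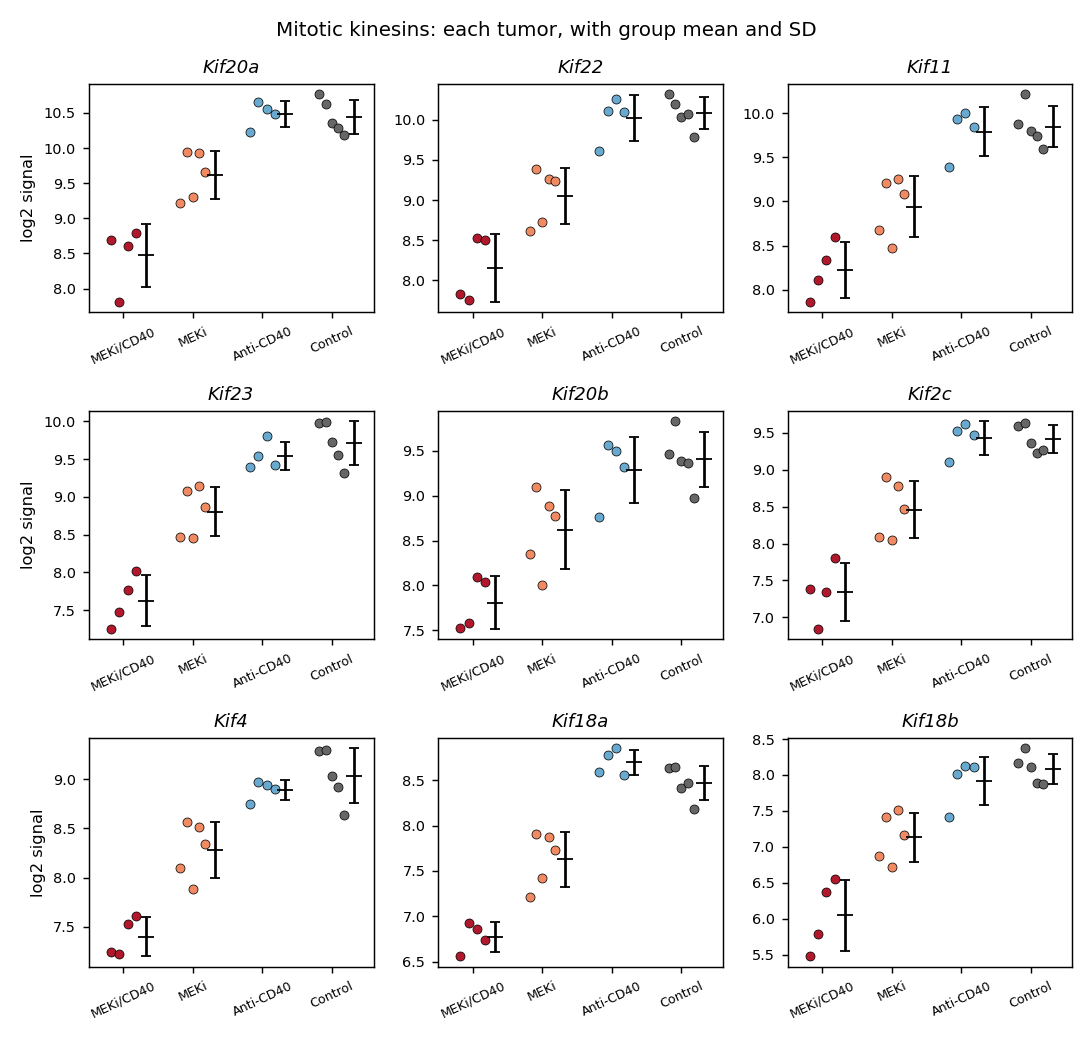
Log2 signal (vertical axis) of the 9 measured mitotic kinesins in every tumor (points) of the 4 groups, with group mean and SD beside the points. The groups step up in the order MEKi/CD40, MEKi and then anti-CD40 and control, whose points overlap in each panel.

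The 9 calls stood when any single tumor was left out (median difference -1.76 to -2.05) and without MEKi/CD40 tumors 2 and 4, those with the most fat marker RNA (median difference -1.80). With the 2 control tumors of low title number alone as the reference, the median fall was larger (-2.11), but 3 of the 9 genes were called.

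The 9 mitotic kinesins also agreed largely on the lowest tumors of the MEKi, anti-CD40 and control groups. In the MEKi group, tumors 1 and 3 were the lowest pair for all 9 genes. Anti-CD40 tumor 1 was the lowest of its group for 8 genes and control tumor 5 for 8. In the MEKi/CD40 group the lowest place was split, with tumor 1 lowest for 5 genes and tumor 2 for 4, and tumor 2 was the highest for 1. The mean signal over the 9 genes was 7.28 to 7.85 in MEKi/CD40 tumors, 8.12 to 8.84 in MEKi tumors, 9.03 to 9.52 in anti-CD40 tumors and 9.09 to 9.65 in control tumors. Over the 10 measured transport kinesins the mean was 8.55 to 8.81 in MEKi/CD40 tumors, 8.44 to 8.60 in MEKi tumors, 8.47 to 8.52 in anti-CD40 tumors and 8.27 to 8.53 in control tumors.

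Several probe sets report on Kif11, Kif22, Kif23 and Kif2c, and together the 9 genes had 16 measured probe sets. All 16 were called lower in MEKi/CD40 tumors and 15 in MEKi tumors, each against control, and none in anti-CD40 tumors. The size differed between sets of a gene: differences in MEKi/CD40 tumors against control ran from -1.62 to -2.73 for Kif11, from -1.11 to -2.10 for Kif22, from -2.08 to -2.86 for Kif23 and from -1.73 to -2.38 for Kif2c. The fold of a single set is therefore no exact measure of its transcript. With the mean of all sets of a gene in place of the brightest, those that stayed dim on all arrays included, the difference in MEKi/CD40 tumors against control was -0.50 for Kif20b and -0.85 for Kif18a, and both were still called (adjusted p = 0.0225 and 0.000396). The only other set of Kif18a averaged 2.16 over the arrays.

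**Figure D3:**
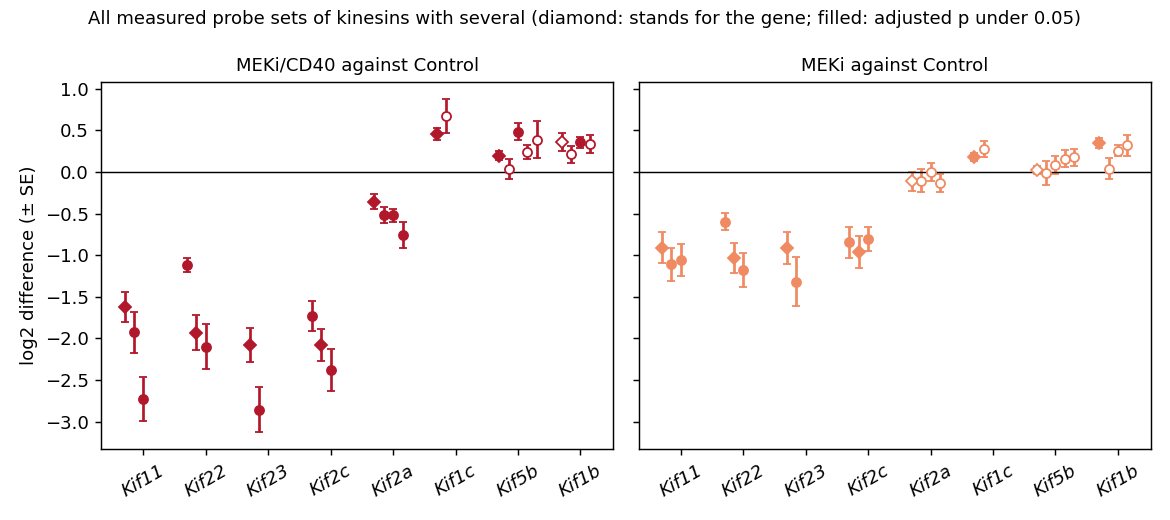
Log2 difference ± SE (vertical axis) of every measured probe set of 8 kinesins with several sets, in MEKi/CD40 (left) and MEKi (right) tumors against control. Sets run from brightest to dimmest within a gene, diamonds mark the set that stands for the gene and filled symbols an adjusted p under 0.05. All sets of Kif11, Kif22, Kif23 and Kif2c lie below 0 in both panels, and all 4 of Kif2a are called lower only in the left panel.

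Since the mitotic kinesins moved together, their promoters were compared. RefSeq promoter windows (GRCm38.p6, 250 bases before to 50 after the first start listed for a gene) were matched for 31 of the 37 members, Kif13b, Kif20a, Kif21b, Kif28, Kif5a and Kif5b having none in the table. A pair of short elements, known from promoters that are active late in the cell cycle, were searched on both strands: TTTGAA, the core of the cell cycle genes homology region (CHR), and CCAAT, the box bound by NF-Y. TTTGAA was present in 9 of 10 mitotic and 0 of 10 transport kinesins, against 18.1% of all 27025 genes in the table. Starting within 30 bases of the start it was found in 7 of 10 mitotic kinesins, against 3.15% of all genes. CCAAT was present in 6 of 10 mitotic and 3 of 10 transport kinesins, against 37.9% of all genes. These counts include members that were not measured, among them the mitotic Kif14 and Kif15. Of the measured members, TTTGAA was present in 7 of 8 mitotic kinesins (6 of 8 within 30 bases of the start) and 0 of 8 transport kinesins. CCAAT was present in 5 of 8 and 3 of 8. The elements did not overlap in the stretches shown, a match is a description of the letters, and Kif18a, which fell too, had neither. Kif26b, which rose, had both, with TTTGAA at -9 and CCAAT at -73 from the start.

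The stretches below run from -100 to 50 of the start, whose first base is 1, 5′ to 3′ along the gene, with TTTGAA and CCAAT or their reverse complements TTCAAA and ATTGG in capitals. They show 4 mitotic kinesins with both elements, of which Kif4 has a further CCAAT and Kif22 a further CCAAT and TTTGAA outside the stretch, then the mitotic Kif18a and the transport kinesin Kif1c with none. The positions are chr19:37376282-37376431 on the plus strand for Kif11, chr7:127042371-127042520 on the minus strand for Kif22, chr11:102925075-102925224 on the minus strand for Kif18b, chrX:100625965-100626114 on the plus strand for Kif4, chr2:109280638-109280787 on the plus strand for Kif18a and chr11:70700448-70700597 on the plus strand for Kif1c.
Kif11: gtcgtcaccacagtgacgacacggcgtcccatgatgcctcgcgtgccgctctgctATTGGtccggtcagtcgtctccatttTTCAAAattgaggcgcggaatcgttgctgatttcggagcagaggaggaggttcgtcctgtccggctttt
Kif22: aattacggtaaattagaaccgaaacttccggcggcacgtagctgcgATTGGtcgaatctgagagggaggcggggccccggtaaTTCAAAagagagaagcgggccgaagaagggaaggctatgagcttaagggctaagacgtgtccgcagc
Kif18b: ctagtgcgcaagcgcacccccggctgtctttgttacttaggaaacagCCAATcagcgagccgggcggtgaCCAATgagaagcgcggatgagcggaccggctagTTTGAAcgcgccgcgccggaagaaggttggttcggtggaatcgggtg
Kif4: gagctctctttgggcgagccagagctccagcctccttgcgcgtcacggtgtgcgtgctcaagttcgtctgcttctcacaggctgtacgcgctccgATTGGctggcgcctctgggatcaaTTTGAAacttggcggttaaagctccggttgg
Kif18a: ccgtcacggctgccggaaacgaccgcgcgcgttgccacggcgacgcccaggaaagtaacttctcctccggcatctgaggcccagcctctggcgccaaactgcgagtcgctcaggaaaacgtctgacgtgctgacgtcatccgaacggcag
Kif1c: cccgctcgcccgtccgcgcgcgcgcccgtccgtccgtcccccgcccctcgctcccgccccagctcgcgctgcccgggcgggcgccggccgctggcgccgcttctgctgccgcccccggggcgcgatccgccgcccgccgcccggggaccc

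Outside the mitotic class, MEKi/CD40 tumors differed from control in 6 kinesins. Kif1c (chr11:70700396-70731970), a fast carrier of dense core vesicles and integrins, had signals of 10.49, 10.59, 10.28 and 10.37 in MEKi/CD40 tumors, 10.18, 10.14, 10.16, 10.22 and 10.07 in MEKi tumors, 9.76, 9.88, 9.92 and 9.95 in anti-CD40 tumors and 9.91, 10.10, 9.94, 9.91 and 10.01 in control tumors. The MEKi/CD40 tumors were above all others, and the difference was small in size (log2 0.46 ± 0.07, 1.37-fold, adjusted p = 0.00596). Kif13b (chr14:64652492-64809618), a kinesin-3 that moves membrane cargo to the cell cortex, had 7.04, 6.87, 6.71 and 6.62 in MEKi/CD40 tumors, 6.30, 5.74, 6.05, 6.14 and 6.34 in MEKi tumors, 5.63, 6.29, 5.74 and 5.72 in anti-CD40 tumors and 5.32, 5.91, 5.60, 5.80 and 6.20 in control tumors. It rose 2.06-fold (log2 1.04 ± 0.18, adjusted p = 0.0094), again with all MEKi/CD40 tumors above all others. No further measured probe set reported on Kif13b, and the mean over all of its sets differed by 0.26 (adjusted p = 0.00691). Of the 6 genes, Kif1c alone kept its call without MEKi/CD40 tumors 2 and 4, where Kif13b differed by 1.11 between the remaining tumors (adjusted p = 0.0658). None of the 6 kept it with the fat marker mean as a covariate, Kif1c then differing by 0.38 (adjusted p = 0.0614).

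Kif5b (chr18:6201005-6241524), the heavy chain of conventional kinesin that most cells use to move lysosomes and mitochondria, had 12.53, 12.51, 12.39 and 12.36 in MEKi/CD40 tumors, 12.19, 12.21, 12.38, 12.24 and 12.35 in MEKi tumors, 12.56, 12.15, 12.39 and 12.18 in anti-CD40 tumors and 12.13, 12.23, 12.32, 12.29 and 12.29 in control tumors. It rose by only 0.20 ± 0.05 (1.15-fold, adjusted p = 0.0459), and leaving out any of 8 of the 9 tumors, all but MEKi/CD40 tumor 4, ended the call (differences of 0.17 to 0.21). The 5 measured probe sets of Kif5b differed by 0.03 to 0.49, and 2 of them were called higher. Kif1b (chr4:149176319-149307773), which carries mitochondria and vesicle precursors, had 9.94, 10.02, 9.49 and 9.77 in MEKi/CD40 tumors, 9.93, 9.73, 9.72, 9.71 and 9.84 in MEKi tumors, 9.35, 9.48, 9.55 and 9.59 in anti-CD40 tumors and 9.28, 9.43, 9.54, 9.48 and 9.48 in control tumors. MEKi/CD40 tumor 3 overlapped with the control tumors, and the difference of 0.36 ± 0.11 did not pass the test (adjusted p = 0.0746). The 4 measured probe sets of Kif1b differed by 0.21 to 0.36, and 1 of them, not the set that stands for the gene, was called higher.

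Among the other transport kinesins, Kif3a (chr11:53565701-53604248), a kinesin-2 subunit that carries material into cilia, had 9.15, 9.16, 8.69 and 9.08 in MEKi/CD40 tumors, 9.22, 9.37, 9.40, 9.49 and 9.27 in MEKi tumors, 9.46, 9.23, 9.06 and 9.11 in anti-CD40 tumors and 9.24, 9.18, 9.24, 8.87 and 9.03 in control tumors. Its difference of -0.09 ± 0.12 in MEKi/CD40 tumors against control did not pass the test (adjusted p = 0.784). The 7 measured transport kinesins that did not pass, Kif1b, Kif3a, Kif3b, Kif3c, Kif5c, Kif13a and Kif16b, differed by -0.09 to 0.36 in this comparison. Kif3c gave exactly 7.61 on 6 of the 18 arrays and lay within 0.3 of that value on 15, so that it was counted as measured but may have been at a lower limit of its set on most arrays.

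Kif26b (chr1:178529125-178932857), an atypical kinesin of mesenchymal cells that works downstream of Wnt5a and Ror receptors, had 11.25, 10.19, 10.30 and 10.93 in MEKi/CD40 tumors, 10.07, 9.31, 10.17, 9.14 and 10.08 in MEKi tumors, 9.11, 9.59, 9.68 and 10.24 in anti-CD40 tumors and 9.02, 9.79, 9.91, 9.33 and 9.72 in control tumors. It rose 2.16-fold (log2 1.11 ± 0.28, adjusted p = 0.0388) with no overlap with control, the largest rise in the family. MEKi/CD40 tumors 1 and 4 carried the highest values, and without tumor 1 the difference was 0.92 (adjusted p = 0.0887) and without tumor 4 it was 1.03 (adjusted p = 0.102). Leaving out each of the 5 control tumors also ended the call (differences of 0.98 to 1.20). The fibroblast markers too were higher in MEKi/CD40 than in control tumors. Col1a1 had 14.00, 13.90, 13.68 and 13.56 in MEKi/CD40 tumors, 13.00, 12.06, 12.72, 11.02 and 11.48 in MEKi tumors and 7.50, 9.67, 8.58, 8.05 and 8.90 in control tumors. In MEKi tumors, where Col1a1 was also above control, Kif26b differed from control by 0.20 ± 0.27 and was not called. The part of fibroblasts in the rise of Kif26b was not tested.

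Kif2a and Kif24 fell modestly in MEKi/CD40 tumors. Kif2a (chr13:106958996-107022355), a kinesin-13 that removes tubulin at spindle poles and in neurites, had 9.35, 9.40, 9.65 and 9.47 in MEKi/CD40 tumors, 9.71, 9.77, 9.51, 10.03 and 9.54 in MEKi tumors, 10.00, 9.71, 9.70 and 9.69 in anti-CD40 tumors and 9.94, 9.92, 9.89, 9.80 and 9.56 in control tumors. MEKi/CD40 tumor 3 overlapped with control tumor 5, and the fall by 0.35 ± 0.10 (adjusted p = 0.0473) lost its call without any of MEKi/CD40 tumors 1, 2 and 4 or control tumors 1 to 4 (differences of -0.32 to -0.36). The 3 other measured probe sets of Kif2a were called lower too, by up to 0.76. Kif24 (chr4:41389964-41464919), which holds back the growth of cilia from the mother centriole, had 5.60, 5.60, 5.45 and 5.56 in MEKi/CD40 tumors, 5.60, 5.65, 5.60, 5.79 and 5.62 in MEKi tumors, 5.63, 5.63, 5.64 and 5.61 in anti-CD40 tumors and 5.88, 6.12, 5.72, 5.89 and 5.95 in control tumors. Its fall by 0.36 ± 0.08 (adjusted p = 0.0209) lost its call without MEKi/CD40 tumor 4 (-0.36, adjusted p = 0.0527). The anti-CD40 values of Kif24 spanned only 5.61 to 5.64 (SD 0.01). Whether treated tumors lay near a lower limit of its set was not tested.

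**Figure D4:**
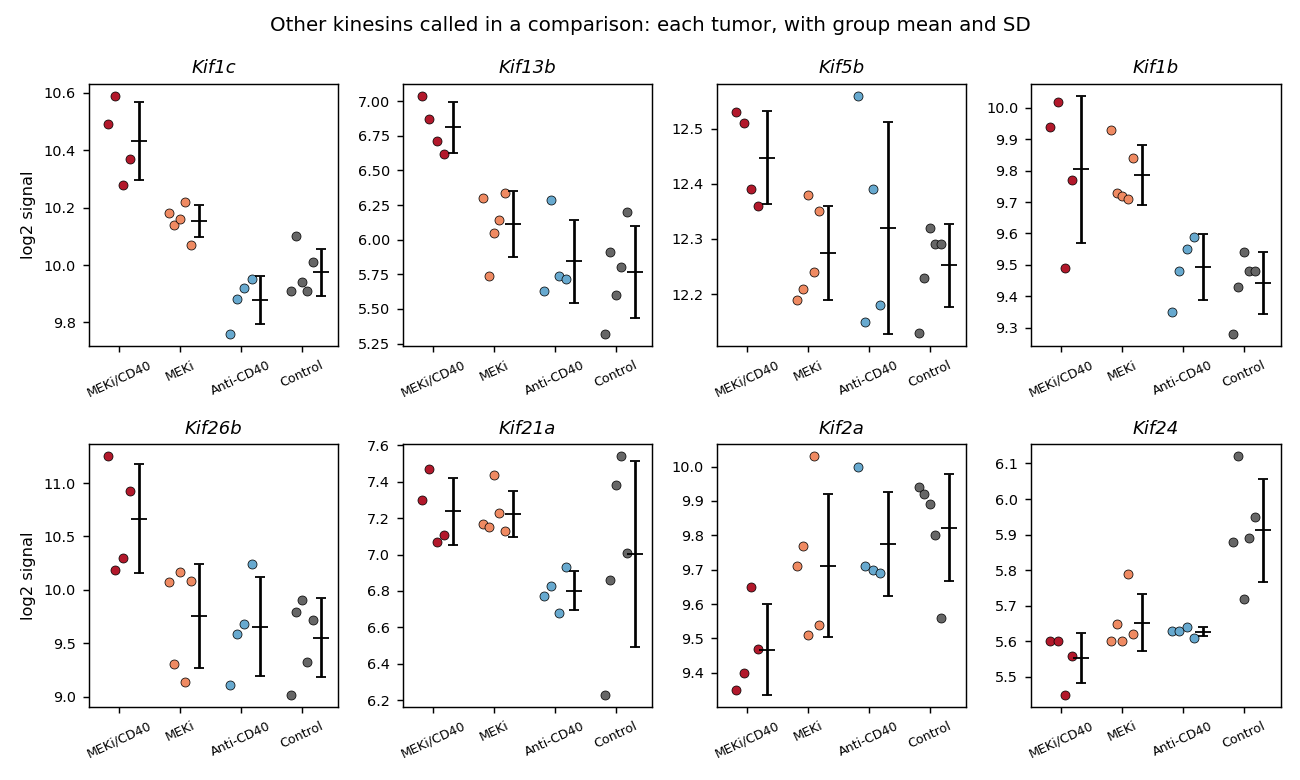
Log2 signal (vertical axis, a separate range in each panel) in every tumor for the 8 kinesins outside the mitotic class that were called in any comparison, with group mean and SD. MEKi/CD40 points lie above all control points for Kif1c, Kif13b, Kif5b and Kif26b and below all of them for Kif24.

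The MEKi tumors too had less RNA of mitotic kinesins than the control tumors. Of the 9 measured, 8 fell, by 0.76 to 1.03 on the log2 scale (1.69- to 2.05-fold, adjusted p 0.0143 to 0.0363), with no overlap between MEKi and control tumors. The background was 3.83% of all probe sets called lower and 3.99% called higher (8.22% and 8.65% of the measured ones), with 4.57% all below control and 4.61% all above. Kif22 had the largest fall (1.03 ± 0.18, adjusted p = 0.0143), and Kif20b, whose groups overlapped, missed the threshold (log2 -0.78 ± 0.23, adjusted p = 0.0828). The number of calls hung on single tumors: 3 of the 9 were called without any of control tumors 1, 2 and 3 or MEKi tumor 1, and 5 without MEKi tumor 3 or 5. The median difference stayed between -0.79 and -0.99 when any tumor was left out, against -0.91 with all tumors. It was -1.12 among the tumors of low title number (2 against 2) and -0.71 among those of high number (3 against 3), with 0 calls in each. With the fat marker mean as a covariate the median difference was -1.54 and 8 were called. That mean was 4.51 to 5.83 in MEKi tumors and 3.76 to 4.42 in control tumors. As these ranges do not overlap, the fit cannot separate fat from treatment, and its larger difference is not read as a stronger effect.

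Outside the mitotic class, MEKi tumors differed from control in 2 kinesins, both of transport. Kif1b was higher in all 5 MEKi tumors than in all control tumors (log2 0.34 ± 0.06, 1.27-fold, adjusted p = 0.0155). Its call was lost with the fat marker mean as a covariate (0.44, adjusted p = 0.0885) and with trend and robust moderation (adjusted p = 0.0734), and the mean over all of its probe sets differed by 0.16 (adjusted p = 0.0485). Kif1c was 1.13-fold higher (log2 0.18 ± 0.04, adjusted p = 0.0422), with MEKi tumor 5 below control tumor 2, and its call was lost without any of 8 of the 10 tumors, all but control tumor 2 and MEKi tumor 5 (differences of 0.16 to 0.19). Kif13b differed by 0.35 ± 0.18 and Kif26b by 0.20 ± 0.27, and neither passed (adjusted p = 0.34 and 0.793). Kif5c, a conventional kinesin heavy chain best known from neurons, had 5.81, 5.30, 5.60, 5.41 and 5.87 in MEKi tumors and 5.97, 6.65, 5.93, 5.66 and 6.40 in control tumors, a difference of -0.52 ± 0.20 that did not pass (adjusted p = 0.179).

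Anti-CD40 alone gave no call among the 37 members, in a comparison in which 0% of all probe sets were called (limma, 0 of 45037, with 2423 at an unadjusted p under 0.05). The 9 mitotic kinesins differed by -0.17 to 0.23 with SEs of 0.11 to 0.22, and all overlapped with control. The 10 transport kinesins differed by -0.10 to 0.24. Of the members, 2 had an unadjusted p under 0.05, and in both the anti-CD40 tumors lay below all control tumors. Kif7, which carries Hedgehog signaling at the tip of the cilium, had 5.70, 5.89, 5.56 and 5.88 in anti-CD40 tumors and 5.95, 6.28, 6.34, 5.98 and 6.22 in control tumors (log2 -0.40 ± 0.11, adjusted p = 0.691), and Kif24 differed by -0.28 ± 0.07 (adjusted p = 0.646). Such separation was seen for 1.05% of all probe sets below control and 0.637% above. A p that misses the threshold does not show that anti-CD40 left the kinesins as they were.

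**Figure D5:**
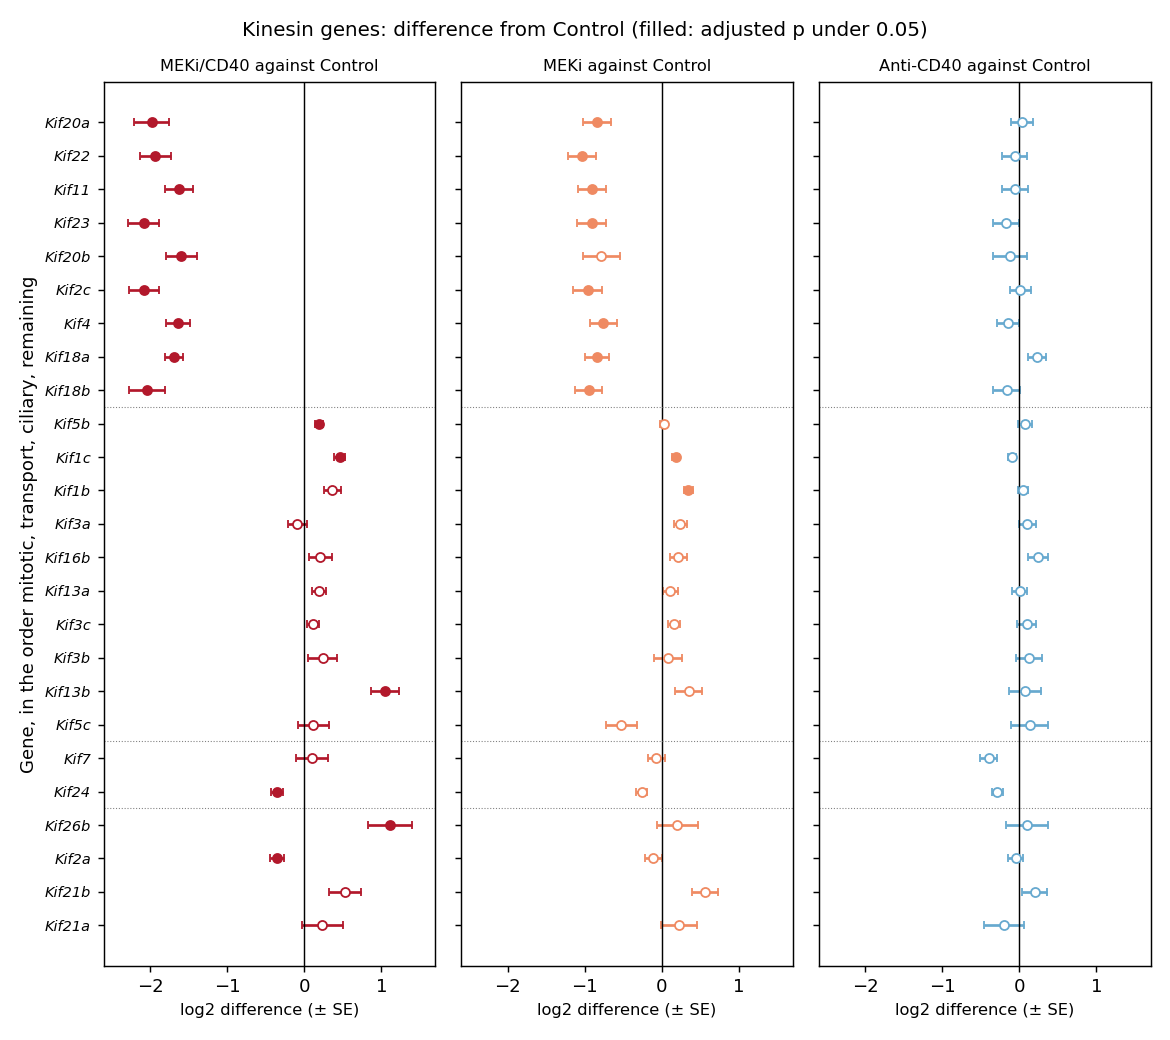
Log2 difference ± SE (horizontal axis) from control of the 25 measured kinesins in MEKi/CD40, MEKi and anti-CD40 tumors, with filled points for an adjusted p under 0.05 and dotted lines between the classes. The 9 mitotic kinesins lie at -1.59 to -2.08 in the left panel, at -0.76 to -1.03 in the middle panel and at -0.17 to 0.23 in the right panel. The 3 panels share their control tumors.

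Adding MEKi to anti-CD40 was read from MEKi/CD40 against anti-CD40 tumors. All 9 mitotic kinesins fell, by 1.48 to 2.09 (2.78- to 4.25-fold, adjusted p 0.00195 to 0.0117) with no overlap, where 7.19% of all probe sets were called lower and 4.42% higher (15.6% and 9.22% of the measured ones) and 10.8% were all below anti-CD40 and 7.6% all above. Kif2c had the largest fall (2.09 ± 0.22) and Kif18a the smallest adjusted p (0.00195, a fall by 1.92 ± 0.10). Kif1c rose by 0.56 ± 0.08 (adjusted p = 0.00837) and Kif13b by 0.97 ± 0.17 (adjusted p = 0.0176). The call of Kif13b was lost without MEKi/CD40 tumor 2 (0.95), anti-CD40 tumor 3 (0.93) or anti-CD40 tumor 4 (0.92). Kif21a, a kinesin-4 that slows microtubule growth at the cell cortex, had 7.30, 7.47, 7.07 and 7.11 in MEKi/CD40 tumors and 6.77, 6.83, 6.68 and 6.93 in anti-CD40 tumors. It rose by 0.44 ± 0.10 (adjusted p = 0.0449), but the removal of each tumor other than MEKi/CD40 tumor 3 ended the call (differences of 0.36 to 0.48). With the 3 arrays of the highest fat marker mean left out (MEKi/CD40 tumors 2 and 4 and anti-CD40 tumor 3), the median difference of the mitotic kinesins was -1.81, against -1.87 with all tumors, and 1 of the 9 was called with 2 tumors against 3. Kif1c (0.52, adjusted p = 0.159), Kif13b (0.995, adjusted p = 0.264) and Kif21a (0.34, adjusted p = 0.279) lost their calls there. The mean over all probe sets was 0.39 for Kif1c, which was not called (adjusted p = 0.0752), and 0.24 for Kif13b, which was (adjusted p = 0.0124).

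Adding anti-CD40 to MEKi was read from MEKi/CD40 against MEKi tumors. The 9 mitotic kinesins were lower by 0.72 to 1.17 and had unadjusted p-values under 0.05, as had 7564 of all 45037 probe sets. After adjustment 3 were called lower: Kif23 (log2 -1.17 ± 0.22, 2.26-fold, adjusted p = 0.043), Kif4 (log2 -0.88 ± 0.17, adjusted p = 0.0453) and Kif18a (log2 -0.86 ± 0.17, adjusted p = 0.0475). Here 1.77% of all probe sets were called lower and 0.737% higher (3.82% and 1.43% of the measured ones). The MEKi/CD40 tumors lay below all MEKi tumors for 7 of the 9, Kif11 and Kif20b overlapping, against 5.8% of all probe sets below and 3.14% above. These calls were close to the threshold. At most 1 gene was called when a tumor was left out (1 without MEKi tumor 1 or MEKi/CD40 tumor 4 and 0 without any other), whereas 9 were called in a model of all 18 arrays. None of the transport, ciliary or remaining kinesins was called. Among these, Kif13b came closest (log2 0.70 ± 0.14, adjusted p = 0.055), followed by Kif5c (log2 0.64 ± 0.13, adjusted p = 0.0555).

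Whether MEKi acted differently with and without anti-CD40 was asked by the interaction, the difference of MEKi/CD40 from anti-CD40 tumors minus that of MEKi from control tumors. Kif18a was lower in the combination than the sum of the single differences by 1.08 ± 0.20 (adjusted p = 0.014), and Kif1c was higher by 0.38 ± 0.08 (adjusted p = 0.0334). The background was 1.58% of probe sets called lower and 1.06% higher (3.42% and 1.97% of the measured ones). The interaction estimates of all 9 mitotic kinesins were negative, from -0.66 to -1.17, and 8 had an unadjusted p under 0.05, but Kif20a (log2 -1.17 ± 0.30, adjusted p = 0.0508) and the 7 others did not pass. Of all 45037 probe sets, 6634 had an unadjusted p under 0.05 for the interaction. The call of Kif18a stood when any tumor was left out (-1.01 to -1.19). That of Kif1c was lost for 10 of the 18 (0.32 to 0.39): MEKi/CD40 tumors 1 and 2, MEKi tumors 2 and 5, anti-CD40 tumors 1, 2 and 3 and control tumors 2, 3 and 5. With the mean of all probe sets of a gene, the interaction was -0.54 for Kif18a, still called (adjusted p = 0.0149), and 0.12 for Kif1c, which was not (adjusted p = 0.73). Without the 3 arrays richest in fat markers Kif1c stood at 0.34 (adjusted p = 0.0854). The count of mitotic calls was 2 without control tumor 1, 3 without MEKi tumor 1 and 4 without MEKi tumor 3 or MEKi/CD40 tumor 4.

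Motors that the symbol rule leaves out, and the partners of the mitotic kinesins, were read from lists. Kifc1, a minus-end motor that bundles spindle poles and has a near-identical copy in Kifc5b, had 6.04, 4.28, 7.04 and 6.87 in MEKi/CD40 tumors, 6.67, 6.96, 6.08, 7.23 and 6.94 in MEKi tumors, 8.12, 8.27, 8.61 and 7.69 in anti-CD40 tumors and 7.84, 8.35, 8.54, 8.58 and 8.00 in control tumors. It fell by 2.20 ± 0.57 in MEKi/CD40 tumors (adjusted p = 0.0394) and by 1.49 ± 0.24 in MEKi tumors (adjusted p = 0.0122) against control. Cenpe, the kinetochore motor that brings chromosomes to the equator, had 8.79, 8.67, 9.35 and 9.37 in MEKi/CD40 tumors, 9.63, 10.05, 9.52, 10.10 and 9.92 in MEKi tumors, 10.36, 10.55, 10.68 and 10.33 in anti-CD40 tumors and 10.61, 10.93, 10.72, 10.47 and 10.10 in control tumors. It fell by 1.52 ± 0.22 (adjusted p = 0.00467) in MEKi/CD40 tumors and by 0.72 ± 0.18 (adjusted p = 0.0445) in MEKi tumors.

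Of 17 partners of mitotic kinesins, 16 fell in MEKi/CD40 tumors and 15 in MEKi tumors against control, with median differences of -1.69 and -0.85 on the log2 scale. Of all measured probe sets, 20.3% were called lower in MEKi/CD40 tumors and 8.22% in MEKi tumors. The midzone bundler Prc1 had 8.20, 8.07, 8.42 and 8.37 in MEKi/CD40 tumors and 10.11, 9.97, 10.01, 10.02 and 9.73 in control tumors (log2 -1.70 ± 0.10, adjusted p = 0.000325). Anln, a scaffold of the cleavage furrow, fell by 1.42 ± 0.06 (adjusted p = 0.000167), and the checkpoint kinase Bub1b by 1.38 ± 0.11 (adjusted p = 0.000894). Numa1, which anchors spindle poles and also belongs to the interphase nucleus, was the exception in MEKi/CD40 tumors (log2 0.07 ± 0.08, adjusted p = 0.684). All 5 proliferation markers fell in MEKi/CD40 tumors and 4 in MEKi tumors, by a median of 1.18 in MEKi/CD40 tumors and 0.64 in MEKi tumors. Mki67, for example, had 10.14, 9.96, 10.78 and 10.56 in MEKi/CD40 tumors and 11.58, 11.71, 11.58, 11.53 and 11.30 in control tumors.

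The cargo side showed no such shift. Of 16 light chains and adaptors of transport kinesins, 1 fell in MEKi/CD40 tumors against control. This was Rhot1, which links motors to mitochondria (log2 -0.28 ± 0.03, adjusted p = 0.00282). Next by p came Rhot2, its relative (log2 -0.19 ± 0.06, adjusted p = 0.0833), and the scaffold Spag9 (log2 0.34 ± 0.11, adjusted p = 0.0854), neither of which passed. The list median was -0.04 over all 16 genes and -0.0015 over the 14 measured ones. Of all measured probe sets, 20.3% were called lower and 11.4% higher in this comparison. Of 15 genes of cytoplasmic dynein and dynactin, the motor of the opposite direction, 3 rose: the heavy chain Dync1h1 by 0.64 ± 0.09 (adjusted p = 0.00498), Dync1li2 by 0.50 ± 0.11 (adjusted p = 0.0249) and Dynlt3 by 0.42 ± 0.11 (adjusted p = 0.0478). The median of this list was 0.02 over all 15 genes and 0.0525 over the 14 measured ones. In MEKi tumors, 1 adaptor, the kinesin-2 subunit Kifap3, rose by 0.37 ± 0.07 (adjusted p = 0.0226), and 3 dynein and dynactin genes rose, Dync1li2 by 0.38 ± 0.09 (adjusted p = 0.0384), Dctn1 by 0.17 ± 0.04 (adjusted p = 0.0276) and Dctn3 by 0.18 ± 0.04 (adjusted p = 0.0256). Of all measured probe sets, 8.65% were called higher and 8.22% lower in MEKi tumors.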

How the data were processed

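Total RNA of 18 tumors was run on Affymetrix mouse genome expression arrays, a single color each, and the authors deposited log2 signals per probe set. The submitters' processing notes name RMA, and the methods name Chipster. The values ran from 2.16 to 16.34, with 34.5% equal to the lowest value and 51.3% below 3, so that low signals tell little apart, and the number of arrays limits the precision. Probe sets were named through the platform annotation: 34945 had 1 symbol, 932 several and 9160 none, and 64 control sets were left out. Gene positions and promoters came from RefSeq (GRCm38.p6), in which all 37 members were matched.

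Groups followed the GEO labels. Each pair of groups was fitted by limma (version 3.58.1, R 4.3.3) on the deposited log2 values without covariates, and a fit of all 18 arrays gave the interaction. P-values were adjusted over 45037 probe sets (Benjamini-Hochberg), and an adjusted p under 0.05 was called. Tests on the 12 members below 3 carry no information. Fits had 6 to 14 residual degrees of freedom.

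The members and gene lists were chosen with earlier results of these data known. Named were all mitotic kinesins, every other kinesin called in any comparison, Kif1b, Kif2a, Kif3a and Kif5b, Kifc1 and Cenpe, and the 3 genes with the smallest p of each partner list. Kif5c, Kif7, Numa1, Mki67, Kifap3, Dctn1, Dctn3 and the cell markers were added after their values were seen. The fit was checked on simulated data. Alternatives covered normalization, filters, trend and robust moderation, probe set choice, blocks, covariates and each array left out.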

Additional observations from a re-analysis of the deposited data

Results flagged for a closer look

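Among 72 sets of a kinesin and a treatment group, covering 18 genes, 5 held a value far from the rest of its group. Chance gives about 1 in 20 such sets. Kif18b was low in anti-CD40 tumor 1 (7.42, against 8.02 in the next tumor), which was also the lowest of its group for 7 other mitotic kinesins. Kif13b was high in anti-CD40 tumor 2 (6.29, next 5.74), and Kif2a was high in anti-CD40 tumor 1 (10.00, next 9.71). Kif24 was high in MEKi tumor 4 (5.79, next 5.65), a gap that is small on the log2 scale. Kif3a was low in MEKi/CD40 tumor 3 (8.69, next 9.08).

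The difference of MEKi-treated from untreated tumors depended on anti-CD40 for 2 kinesins by the interaction test. Kif18a stood 1.08 lower (log2 -1.08) and Kif1c 0.38 higher in the combination than the single treatments add up to. With the mean of all probe sets of a gene the values were -0.54 for Kif18a, still called, and 0.12 for Kif1c, not called (adjusted p = 0.73). With any 1 of 18 arrays left out, Kif18a kept its call and Kif1c lost it for 10 of them.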

How the results depend on the processing

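No kinesin called in a comparison reversed its direction there in an alternative, and kinesins that were not called were not checked for this. Counts of called kinesins are given as mitotic ones lower, then others changed. MEKi/CD40 against control gave 9 and 6. Trend and robust moderation gave 3 others, and leaving out the 3 arrays richest in fat markers or fitting that mean gave 2 and 1, each counting Kif28, which was below 3 on all arrays. The low title numbers alone gave 3 and 0. MEKi against control gave 8 and 2. Trend and robust moderation gave 5 and 0, a filter on dim sets 4 others, the mean of all probe sets and the title number series as a block 1 other each, and the fat covariate 0 others. Both counts were 0 within the low numbers and within the high numbers (the high-number fit was chosen after seeing the data). MEKi/CD40 against anti-CD40 gave 9 and 3, against 5 others with the dim filter and 1 and 1 without the 3 fat-rich arrays. MEKi/CD40 against MEKi gave 3 and 0. The count of mitotic kinesins was 9 in 1 model of 18 arrays and with the dim filter, and 0 with trend and robust moderation, the number series as a block, the low numbers, without the fat-rich arrays or with the fat covariate. The count of others was 2 in 1 model, 2 after quantile normalization, 3 with the dim filter and 1 with mean probe sets. The interaction gave 1 and 1, with 3 mitotic ones after quantile normalization, 5 with the dim filter, 3 and 0 with mean probe sets, 0 and 0 in the low numbers, and 0 others without the fat-rich arrays. The dim filter tests fewer sets. The causes of the other shifts were not tested. Anti-CD40 against control gave 0 and 0 throughout.

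Leaving out 1 array gave 9 to 9 and 3 to 7 for MEKi/CD40 against control, 3 to 8 and 1 to 2 for MEKi against control, 0 to 0 and 0 to 0 for anti-CD40 against control, 9 to 9 and 1 to 4 for MEKi/CD40 against anti-CD40, 0 to 1 and 0 to 1 for MEKi/CD40 against MEKi, and 1 to 4 and 0 to 1 for the interaction. Of single genes, 290 of 394 such refits and 341 of 478 other alternatives kept the call.

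The titles give the groups the same replicate numbers, but same-numbered tumors did not deviate together (correlations of -0.29 to 0.28 over 21 pairs) and come from different animals. With the replicate number as a block, 0 mitotic and 0 other kinesins were called in MEKi/CD40 against control and MEKi against control. The same held for MEKi/CD40 against MEKi and the interaction. In MEKi/CD40 against anti-CD40, 0 others were called in this limma fit. There Kif20a (adjusted p = 0.0626), Kif20b (adjusted p = 0.0525) and Kif2c (adjusted p = 0.0525) lost their calls, while the other measured mitotic kinesins kept theirs.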
